A study of Mus musculus with 10 samples.

Results

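The gp130 cytokine family was followed in inflamed mouse ear skin through 9 genes, of 19703 genes in the expression table. They were chosen by symbol from the family's known members: the cytokines Il6, Osm and Lif, and the receptor chains Il6st, Osmr, Lifr, Il31ra, Il6ra and Il11ra1. All 9 were found and all 9 passed the filter on low counts. Every mouse had its left ear painted with MC903 (calcipotriol, a vitamin D analogue used to provoke itchy, dermatitis-like skin) for 7 days in a row and again on day 8. On day 8 the vehicle group (5 libraries) was gavaged with vehicle and the antagonist group (5 libraries) with GSK1562590, which blocks the urotensin II receptor GPR14, at 5 mg/kg in 100 µl. Skin of the MC903-painted ear was taken on day 13 for RNA-seq. Strain, sex and age are not given in the labels, an ear without MC903 was not analysed here, and the labels do not state whether libraries are separate mice. The p-values therefore speak of the spread among these libraries, which may be technical.

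Cytokines of this family signal through gp130, the protein of Il6st, which pairs with a chain that recognises each cytokine. Interleukin 6 and interleukin 11 bind Il6ra and Il11ra1 before they engage gp130, leukemia inhibitory factor binds Lifr, and oncostatin M binds Osmr. Osmr has a further partner, Il31ra, and this pair without gp130 is the receptor of interleukin 31, an itch cytokine of T cells that acts on sensory neurons and on skin cells. The receptors activate JAK kinases and STAT3, and STAT3 induces Socs3, which shuts the signal off.

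Antagonist ears held less RNA of the cytokines Il6 and Osm and of the receptor chains Il31ra and Il11ra1, and more of Lifr, than vehicle ears. Of the 9 genes, 4 were lower and 1 was higher at an adjusted p under 0.05 by edgeR's quasi-likelihood test, and 4 did not pass. Over all 15174 genes tested 34.1% were called, 17.4% lower and 16.7% higher, so calls were common in this comparison. The median log2 fold change of the 9 genes was −0.23, against 0.0 over all genes tested. In the same 5 genes the CPM (scaled read counts, adjusted for library size) of the groups did not overlap, as in 20.8% of all genes tested. The gp130 gene itself and Osmr, the chain shared by the oncostatin and interleukin 31 receptors, did not pass.

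**Figure D1:**
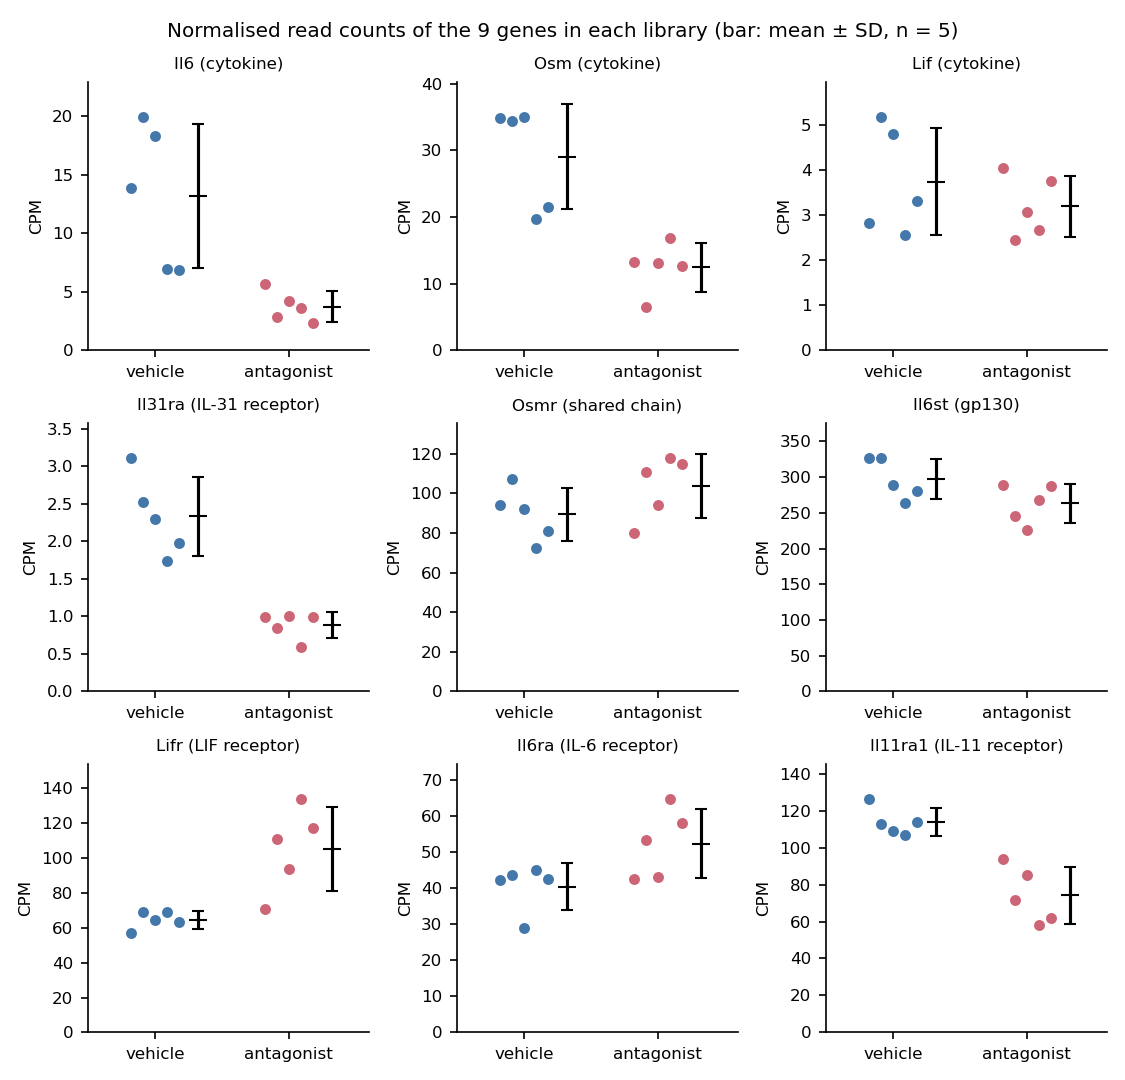
Normalised read counts (CPM, linear axes from 0) of the 9 genes, with 1 point for each library and a bar for the mean ± SD of 5. Il6, Osm, Il31ra and Il11ra1 lie lower in all antagonist libraries than in any vehicle library, Lifr lies higher, and the groups overlap in Lif, Osmr, Il6st and Il6ra.

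Libraries held 20183024 to 20606007 expected counts. Markers of other cell types moved with the groups beside these genes. Of 10 fibroblast markers 8 fell, of 10 T cell markers 8 fell, of 7 tested neutrophil markers 6 fell and of 10 macrophage markers 3 fell, and none of these rose. Over all genes tested 17.4% fell and 16.7% rose. The summed CPM of the T cell markers was 81.3 to 121 in vehicle and 24.7 to 46.1 in antagonist libraries, that of the fibroblast markers 10630 to 18920 and 4045 to 7201. For the neutrophil markers it was 603 to 1217 and 271 to 638, and for the macrophage markers 3145 to 5236 and 2603 to 3807. Of 14 tested cartilage markers 11 fell, with a summed CPM of 918 to 1638 and 504 to 920. Of 10 keratinocyte markers 1 rose and none fell, with 24670 to 40060 and 26480 to 35630 CPM, and epidermal markers were thus abundant in every library. All 5 tested eosinophil markers and 4 of 8 dendritic cell markers fell. Other lists moved both ways or hardly at all. Of 10 mast cell and basophil markers 5 fell and 1 rose, of 8 endothelium markers 1 fell and 1 rose, and of 6 Schwann cell markers 1 fell and 2 rose. Of 10 skeletal muscle markers 2 rose and none fell, and none of 6 adipocyte markers was called. In whole skin, fewer cells of a type and less RNA per cell cannot be told apart. The mean log2 CPM of the cartilage markers did not overlap between the groups, at 5.05 to 5.98 in vehicle and 2.94 to 4.92 in antagonist libraries. It is thus confounded with the group. When this mean was added to the model, 0 genes were called over the whole table by edgeR, and 1880 had an unadjusted p under 0.05. Every call below holds for the model without it, and the part of these cell types in the results was not tested.

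Levels of different genes were compared in TPM, which divides by gene length. Over the 10 libraries the order by mean TPM was Il11ra1 (91.2), Il6st (86.4), Osmr (33.3), Il6ra (23.2), Lifr (18.7), Osm (18.6), Il6 (12.9), Lif (1.44) and Il31ra (0.664). The chains of the interleukin 31 receptor pair thus differed greatly in level: Osmr stood next below Il11ra1 and Il6st in every library, at 26.3 to 40.6 TPM, and Il31ra ranked last or next to last, at 0.23 to 1.26 TPM. Il11ra1 lay above Il6st in all 5 vehicle libraries and in 2 of 5 antagonist libraries. The order differed between the groups in the middle of the range. By mean TPM it was Osm, Il6ra (20.4), Il6 (20.1) and Lifr (15.2) in vehicle ears, with Osm at 18.5 to 32.3, and Il6ra (26.02), Lifr (22.2), Osm (11.1) and Il6 (5.71) in antagonist ears. Lifr lay below Osm in all 5 vehicle libraries and above it in all 5 antagonist libraries. Il6st stood above Osmr, Osmr above Il6ra, Osm above Il6 and Il6 above Lif in all 10 libraries.

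**Figure D2:**
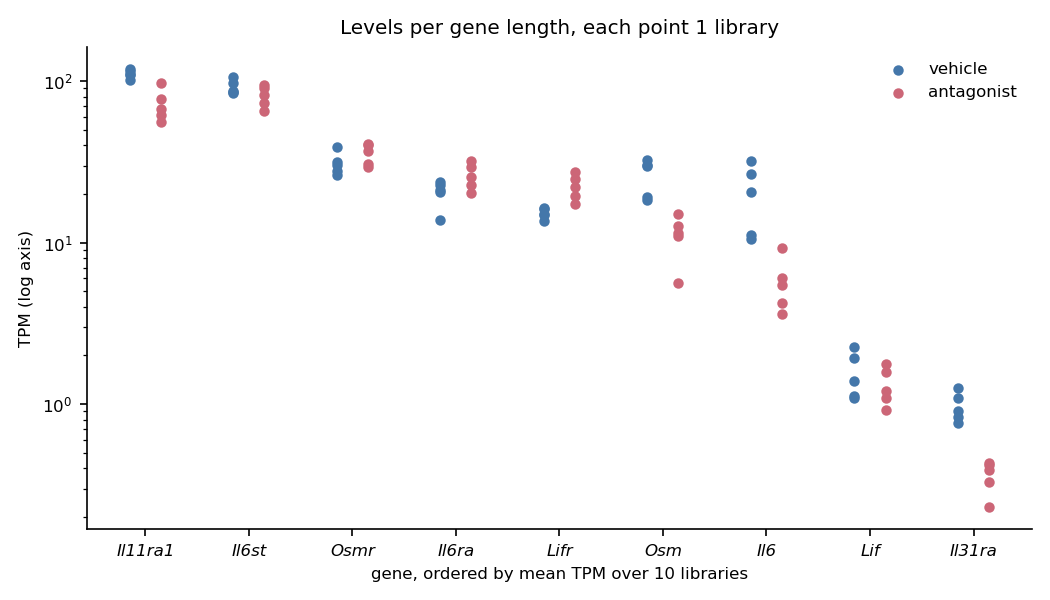
Levels per gene length (TPM, log axis) of the 9 genes, ordered by their mean over 10 libraries, with vehicle and antagonist libraries side by side. Il11ra1 and Il6st stand at the top and Il31ra lies at 0.23 to 1.26 TPM, and Osm and Il6 lie lower among the others in antagonist than in vehicle libraries.

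Il6 encodes the inflammatory cytokine interleukin 6, on chromosome 5 from 30013114 to 30019975 (positions as the table has them, build GRCm38). Its CPM was 13.9, 19.97, 18.3, 6.97 and 6.89 in vehicle replicates 3, 9, 10, 11 and 12, and 5.67, 2.90, 4.23, 3.62 and 2.32 in antagonist replicates 4, 6, 7, 8 and 10. Vehicle libraries fell into 3 high and 2 low values, and the lowest of them still lay above the highest antagonist library. Il6 was 3.51 times lower in antagonist ears (log2 fold change −1.81 ± 0.35 SE, 95% interval −2.57 to −1.05, adjusted p = 0.00356 by edgeR). Its promoter is shown because it holds matches to motifs of inflammatory transcription factors. The sequence is RefSeq's on GRCm38.p6, chr5:30012864-30013163 on the plus strand, 300 bases that end 50 bases past the start of transcription, with matches in capitals.
Il6 promoter: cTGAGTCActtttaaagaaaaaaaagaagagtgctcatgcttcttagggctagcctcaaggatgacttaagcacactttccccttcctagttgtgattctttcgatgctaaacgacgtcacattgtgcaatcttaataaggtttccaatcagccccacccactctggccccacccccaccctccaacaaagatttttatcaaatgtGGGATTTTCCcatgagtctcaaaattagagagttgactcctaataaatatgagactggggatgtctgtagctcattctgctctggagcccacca
The first run in capitals matches the AP-1 motif TGANTCA and the second a kappa B motif. Of 32851 promoters of the same length, searched on both strands, 7.81% held the AP-1 motif and 4.79% the kappa B motif, and a match does not show that a factor binds.

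Osm encodes oncostatin M, a cytokine made mainly by leukocytes, on chromosome 11 from 4236785 to 4241026. Its CPM was 34.9, 34.4, 35.1, 19.6 and 21.5 in vehicle replicates 3, 9, 10, 11 and 12, and 13.3, 6.54, 13.1, 16.8 and 12.6 in antagonist replicates 4, 6, 7, 8 and 10. Vehicle replicates 11 and 12 were the low ones, as for Il6, and all antagonist libraries lay below them. Osm was 2.33 times lower in antagonist ears (log2 fold change −1.22 ± 0.24 SE, 95% interval −1.75 to −0.69, adjusted p = 0.00422 by edgeR). Of the leukocyte markers given above, 6 of 7 neutrophil, 8 of 10 T cell and 3 of 10 macrophage markers fell. So did all 5 tested eosinophil, 4 of 8 dendritic cell and 5 of 10 mast cell and basophil markers, and 1 of the last list rose. Over all genes tested 17.4% fell and 16.7% rose. The summed CPM of the neutrophil, macrophage, and mast cell and basophil markers overlapped between the groups. That of the T cell, eosinophil and dendritic cell markers did not. Neutrophil markers separated the groups in mean log2 CPM, where each marker weighs the same. They stood at 5.61 to 6.48 in vehicle and 4.40 to 5.465 in antagonist libraries. The macrophage markers and the mast cell and basophil markers overlapped on that scale too. The part of these cells in the change of Osm was not tested.

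Lif, which encodes leukemia inhibitory factor, was scarce and did not pass. It had 53 to 109 counts in vehicle and 49 to 86 in antagonist libraries, or 3.74 ± 1.19 and 3.19 ± 0.680 CPM (SD, n = 5), and the groups overlapped. Its log2 fold change was −0.23 ± 0.23 (SE), with a 95% interval of −0.73 to 0.27 and an adjusted p of 0.467 by edgeR. The interval lies on both sides of 0, so these libraries do not settle the direction. Il31, the ligand of the Il31ra and Osmr pair, had 0 to 2 counts per library, 3 in all vehicle and 0 in all antagonist libraries. It was removed by the filter, and a difference was not detectable at this depth, where 3 counts in the smallest library correspond to 0.149 CPM (counting error only).

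Of the chains of the interleukin 31 receptor, Il31ra fell and Osmr did not pass, a difference that was not itself tested. Il31ra, the chain that recognises interleukin 31, lies on chromosome 13 from 112521931 to 112580732. Its counts were 62, 53, 46, 36 and 40 in vehicle replicates 3, 9, 10, 11 and 12, and 21, 17, 20, 12 and 20 in antagonist replicates 4, 6, 7, 8 and 10. The lowest vehicle library, with 36 counts, was well above the highest antagonist library, with 21. Il31ra was 2.63 times lower in antagonist ears, with a log2 fold change of −1.39 ± 0.21 (SE), a 95% interval of −1.86 to −0.93 and an adjusted p of 0.00152 by edgeR. On the scale of log2(TPM + 1), which understates the change of so low a gene, the log2 fold change was −0.53.

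Osmr, the other chain of that receptor and also of the oncostatin receptor, lies on chromosome 15 from 6813568 to 6874968. Its CPM was 94.0, 107, 92.3, 72.15 and 81.1 in vehicle replicates 3, 9, 10, 11 and 12, and 80.0, 111, 94.0, 118 and 115 in antagonist replicates 4, 6, 7, 8 and 10. The groups overlapped over most of their range. The log2 fold change was 0.21 ± 0.13 (SE, 95% interval −0.06 to 0.49, adjusted p = 0.21 by edgeR), an interval that lies on both sides of 0. The sign of this difference turned to −0.27 with the cartilage covariate. Within each library the TPM of Il31ra per 100 of Osmr was 2.79 to 4.01 in vehicle and 0.566 to 1.46 in antagonist ears, with means of 3.13 and 1.05. The ratio does not depend on how libraries are scaled, and the groups did not overlap in it. The TPM of Il31ra alone, at 0.76 to 1.26 in vehicle and 0.23 to 0.43 in antagonist libraries, already fixes that separation, given the ranges of Osmr. The ratio is therefore no further evidence. Like the ratios below, it was chosen after the values were seen and was not tested.

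The promoters of this receptor pair are printed side by side because 1 chain fell and the other did not pass. Both are RefSeq's on GRCm38.p6 and lie on the minus strand, chr13:112580613-112580912 for Il31ra and chr15:6874264-6874563 for Osmr, with motif matches in capitals.
Il31ra promoter: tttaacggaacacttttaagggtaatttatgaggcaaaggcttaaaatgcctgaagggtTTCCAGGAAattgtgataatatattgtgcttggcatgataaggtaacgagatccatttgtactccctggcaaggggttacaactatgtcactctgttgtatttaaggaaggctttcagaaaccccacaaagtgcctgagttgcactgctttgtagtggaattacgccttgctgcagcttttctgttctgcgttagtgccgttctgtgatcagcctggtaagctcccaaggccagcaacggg
Osmr promoter: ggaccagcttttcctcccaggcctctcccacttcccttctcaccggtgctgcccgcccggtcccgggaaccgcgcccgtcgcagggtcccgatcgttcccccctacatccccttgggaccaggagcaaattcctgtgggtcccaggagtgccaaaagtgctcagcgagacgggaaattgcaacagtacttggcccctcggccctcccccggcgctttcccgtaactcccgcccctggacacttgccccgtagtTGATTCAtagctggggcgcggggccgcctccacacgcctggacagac
In Il31ra the capitals mark the STAT motif TTCNNNGAA, which 8.3% of all promoters of this length held and no other of the 10 promoters found for 8 of the 9 genes held. In Osmr they mark an AP-1 motif, TGANTCA, just past RefSeq's start, which the promoters of Il6 and Lif also held. These matches are a description of the letters, and their use in these cells was not measured. GENCODE's spans of both genes, on the minus strand, reach past the printed windows, to 112594360 for Il31ra and 6874969 for Osmr. The windows thus lie inside those spans, and sequence before GENCODE's farther ends was not searched.

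Il6st, the gp130 gene, was the most abundant of the 9 in CPM and did not pass. It had 264 to 327 CPM in vehicle and 225 to 289 CPM in antagonist libraries, 298 ± 28.2 and 263 ± 27.3 (SD, n = 5). The groups overlapped, with a log2 fold change of −0.18 ± 0.09 (SE, 95% interval −0.37 to 0.02, adjusted p = 0.141 by edgeR).

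Lifr, the chain that binds leukemia inhibitory factor, was the member that rose. It lies on chromosome 15 from 7090610 to 7197489. Its CPM was 56.8, 69.2, 64.5, 68.95 and 63.4 in vehicle replicates 3, 9, 10, 11 and 12, and 70.8, 111, 93.5, 134 and 117 in antagonist replicates 4, 6, 7, 8 and 10. All antagonist libraries lay above all vehicle libraries, though antagonist replicate 4 did so narrowly, and the antagonist libraries spread more widely. Lifr was 1.63 times higher (log2 fold change 0.71 ± 0.14 SE, 95% interval 0.39 to 1.02, adjusted p = 0.00474 by edgeR). With the cartilage covariate the log2 fold change was 0.25 (adjusted p = 0.653).

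Of the alpha receptors of interleukin 6 and interleukin 11, Il11ra1 fell and Il6ra did not pass. Il6ra, which also sheds a soluble form that carries interleukin 6 to cells without the receptor, had 42.3, 43.6, 28.9, 44.95 and 42.5 CPM in vehicle replicates 3, 9, 10, 11 and 12. In antagonist replicates 4, 6, 7, 8 and 10 it had 42.5, 53.3, 43.1, 64.8 and 58.0 CPM. Antagonist replicates 4 and 7 lay among the vehicle values and the others above them. The log2 fold change of 0.37 ± 0.14 (SE, 95% interval 0.06 to 0.69) had an adjusted p of 0.0664 by edgeR and did not pass, while in the authors' deposited table it was 0.37 with a q-value of 0.0537. By DESeq2 run here it passed with an adjusted p of 0.0441.

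Il11ra1, on chromosome 4 from 41760443 to 41769473, had 126.5, 113, 109, 107 and 114 CPM in vehicle replicates 3, 9, 10, 11 and 12. In antagonist replicates 4, 6, 7, 8 and 10 it had 93.8, 71.8, 85.0, 57.8 and 62.0 CPM, each below every vehicle library. It was 1.54 times lower (log2 fold change −0.62 ± 0.12 SE, 95% interval −0.89 to −0.35, adjusted p = 0.00424 by edgeR). This value is uncertain, because mouse chromosome 4 carries near-identical copies of the gene. The table lists 3 (Il11ra2, Gm13305 and Gm2002, all annotated with the protein of Il11ra2), and 46.5% of 50-base stretches of the longest Il11ra1 coding transcript also occur in the coding transcripts of Il11ra2 or Gm13305. Il11ra2 went the other way, at 3.27 to 9.65 CPM in vehicle and 8.49 to 13.98 in antagonist libraries (log2 fold change 1.08 ± 0.27 SE; edgeR adjusted p = 0.0112). The copies took 5.41% to 14.6% of the summed counts in vehicle and 15.3% to 28% in antagonist libraries. With all copies summed (tried once the values were known) the log2 fold change was −0.36 ± 0.10 (SE; edgeR adjusted p = 0.0212), from 125 ± 8.11 to 97 ± 15.6 CPM. The next gene along, the chemokine gene Ccl27a, overlaps the end of Il11ra1 by 7 bases on the opposite strand and was higher in 4 of 5 antagonist libraries than in any vehicle library (log2 fold change 1.18, adjusted p = 0.00834 by edgeR). GENCODE's longer spans also overlap an antisense gene (Gm42809) in Il6ra, whose reads cannot be told apart without strand, and a pseudogene on the same strand (Gm3226) in Il31ra. GENCODE's span of Il11ra1 is longer than the table's and overlaps further genes on both strands.

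**Figure D3:**
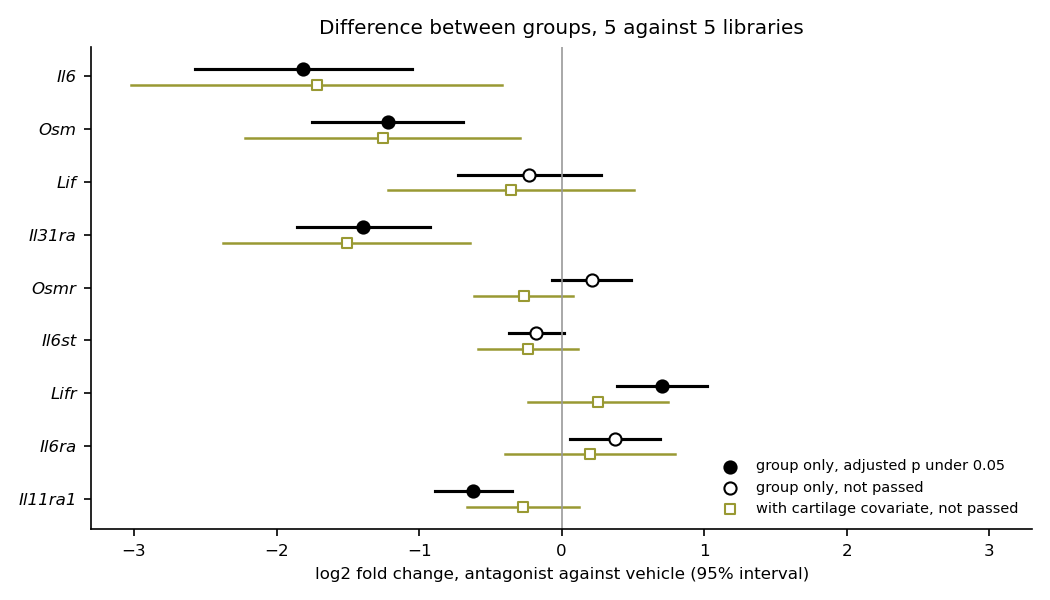
Log2 fold changes of antagonist against vehicle with 95% intervals for the 9 genes, fitted with the group alone (circles, filled where the adjusted p was under 0.05) and with the cartilage covariate (squares, none past the threshold). The estimates of Il6, Osm and Il31ra lie near the same place in both fits, those of Lifr and Il11ra1 lie closer to 0 with the covariate, and Osmr changes sign.

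With the cartilage covariate the log2 fold changes were −1.72 ± 0.59 (SE) for Il6, −1.26 ± 0.43 for Osm and −1.51 ± 0.39 for Il31ra, about as large as without it but with wider errors. Their adjusted p by edgeR were then 0.3, 0.303 and 0.2. Il11ra1 stood at −0.27 ± 0.18 (adjusted p = 0.545), nearer to 0 than without the covariate.

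Cytokine RNA was also set against receptor RNA within each library. Osm per 100 of Osmr, in TPM, was 68.7 to 98.3 in vehicle and 15.3 to 42.8 in antagonist libraries. Il6 per 100 of Il6ra was 47.5 to 193 and 12.2 to 40.7. In both ratios every antagonist library lay below every vehicle library. Il11ra1 per 100 of Il6ra was 461 to 732 and 173 to 429, also without overlap. The TPM of Osm, Il6 and Il11ra1 alone already did not overlap between the groups, so their ratios are no further evidence. Osmr per 100 of Il6st was 33.6 ± 2.63 and 44.6 ± 7.79, with antagonist replicate 4 (31.2) among the vehicle values, and Lifr per 100 of Osmr was 49.8 ± 7.85 and 62.2 ± 3.33, with overlap. These ratios were chosen after the values were seen and were not tested.

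**Figure D4:**
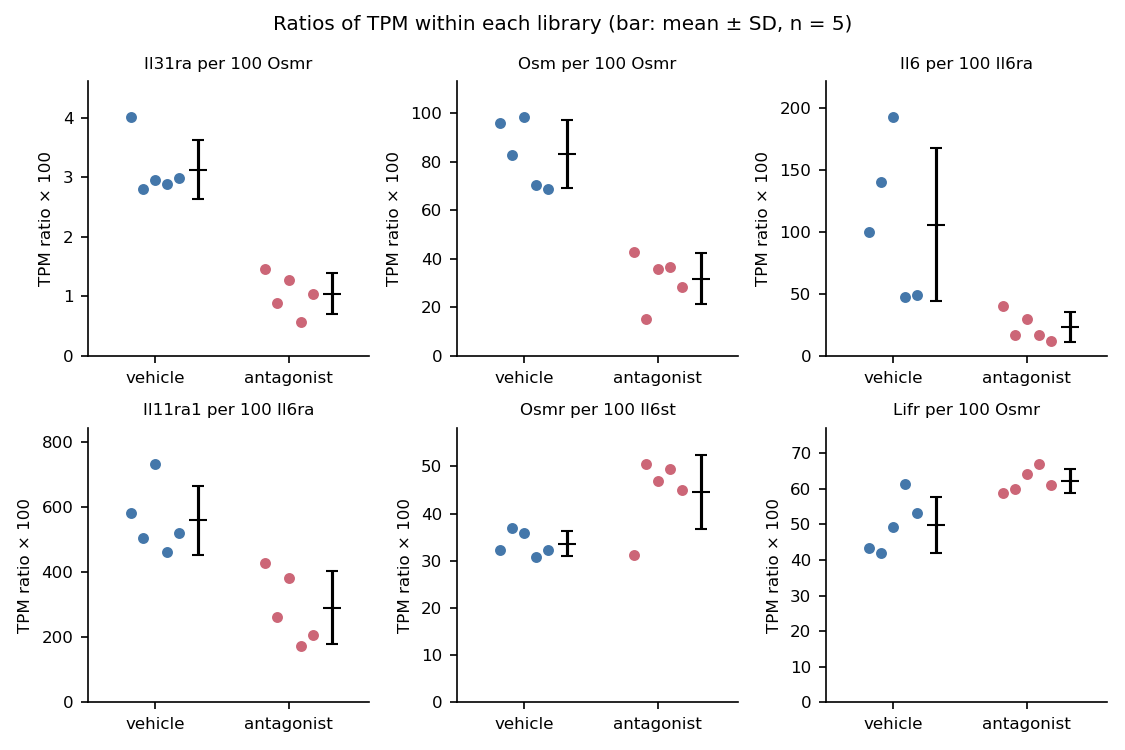
Ratios of TPM between pairs of the 9 genes within each library, times 100 (linear axes from 0), with 1 point for each library and a bar for the mean ± SD of 5. Il31ra per Osmr, Osm per Osmr, Il6 per Il6ra and Il11ra1 per Il6ra are lower in every antagonist library, while Osmr per Il6st and Lifr per Osmr overlap between groups.

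Other genes of the pathway moved both ways. Over 6 lists with 68 genes, 65 were tested, of which 22 fell, 11 rose and 32 did not pass, with a median log2 fold change of −0.12. That is 50.8% called, against 34.1% of all genes tested (17.4% lower and 16.7% higher). Of the other ligands and receptors of the family, 3 fell and 3 rose among 9 tested. Il27ra, the receptor of interleukin 27, fell from 2.61 ± 0.552 to 1.11 ± 0.247 CPM, Ebi3, a subunit of interleukin 27, from 4.84 ± 0.765 to 2.71 ± 0.337, and the cytokine Il11 from 5.38 ± 2.36 to 1.99 ± 0.419 (SD, n = 5). Cntfr, the receptor of ciliary neurotrophic factor, rose from 14.9 ± 2.93 to 32.3 ± 2.94 CPM and its ligand Cntf from 2.89 ± 0.341 to 4.78 ± 1.07. Il11ra2 also rose, with the reservation given above.

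Of 12 kinases, STATs and adaptors, 4 fell, 2 rose and 6 did not pass. Over all genes tested 17.4% fell and 16.7% rose, and the 2 of 12 that rose match that share. Stat3, which relays the signals of the whole family, had 229 to 262 CPM in vehicle and 222 to 273 in antagonist ears (log2 fold change 0.0031, 95% interval −0.14 to 0.15, adjusted p = 0.976 by edgeR), with a sign that varied between settings. Jak1 stood at 214 to 251 and 210 to 229 CPM and did not pass, while Jak2 fell by 0.56 ± 0.10 (log2, SE). Stat5a fell by 0.35 ± 0.11, and Shc1 and Gab1, adaptors of growth factor and cytokine receptors, rose by 0.17 ± 0.05 and 0.24 ± 0.08. The calls of Stat5a, Shc1 and Gab1 were each lost without any of several single libraries, with adjusted p up to 0.0715, 0.0764 and 0.0773. With all libraries kept, limma on log2 TPM with a pseudocount of 1 or 0.1 also lost Shc1 (0.0832 and 0.0843) and Gab1 (0.106 in both).

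Of 7 feedback inhibitors and phosphatases 4 fell and 1 rose, where 17.4% of all genes tested fell and 16.7% rose. Socs3, the inhibitor that gp130 recruits, had 156, 182, 165, 136 and 127 CPM in vehicle replicates 3, 9, 10, 11 and 12, and 67.9, 56.5, 78.1, 68.8 and 82.7 in antagonist replicates 4, 6, 7, 8 and 10. The groups lay far apart (a log2 difference of −1.11 ± 0.12 SE; edgeR adjusted p = 0.000595). Socs1, another inhibitor of JAK kinases, fell by 0.88 ± 0.26 (log2, SE) and the phosphatase Ptpn2 by 0.35 ± 0.06, while Pias3, an inhibitor of STAT3, rose by 0.24 ± 0.06. The call of Socs1 was lost without vehicle replicate 9 (adjusted p = 0.0523), and that of Pias3 by limma on log2(TPM + 1) (0.0516). Of the proteases that shed the interleukin 6 receptor, Adam17 fell from 83.9 ± 3.51 to 70.8 ± 3.63 CPM (SD, n = 5) and the other did not pass.

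Of 24 genes known to respond to STAT3, 6 fell, 4 rose and 14 did not pass, with a median log2 fold change of 0.11. Over all genes tested 17.4% fell and 16.7% rose, and the 4 of 24 that rose match that share. Timp1, an inhibitor of matrix proteases, fell from 138 ± 53.7 to 43.2 ± 11.2 CPM and the survival gene Mcl1 from 389 ± 8.78 to 323 ± 20.1 (SD, n = 5). The growth regulator Myc rose from 82.0 ± 7.63 to 114 ± 14.6 CPM and the kinase Pim3 from 88.2 ± 12.2 to 129 ± 17.8. Of 11 genes that oncostatin M is known to change in human keratinocytes, 4 fell and 1 rose. The falls were the chemokine Cxcl5 (−2.37 ± 0.30, log2, SE), the S100 protein S100a7a (−1.34 ± 0.39), S100a9 (−1.29 ± 0.40) and S100a8 (−0.99 ± 0.34, adjusted p = 0.0436 by edgeR). The riser was Lor, the cornified envelope protein loricrin, at 0.65 ± 0.16. S100a8 and S100a9 also stand in the neutrophil marker list. The other 6 did not pass, and their log2 fold changes ran from −0.43 ± 0.21 (SE) for the keratin gene Krt6b to 0.62 ± 0.22 for the antimicrobial peptide gene Defb4 (adjusted p = 0.0513 by edgeR). Defb4 passed by DESeq2 (0.0189), among other settings, and without vehicle replicate 10 (0.00702) or antagonist replicate 8 (0.0371). The call of S100a8 was lost with edgeR's robust option (adjusted p = 0.0615) and without vehicle replicates 3, 9, 10 or 12 or antagonist replicates 4, 6 or 7 (0.0628 to 0.106). That of S100a9 was lost without vehicle replicates 3 or 12 or antagonist replicates 6 or 7 (adjusted p 0.0529 to 0.07), and that of S100a7a without vehicle replicate 3 (0.0568).

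**Figure D5:**
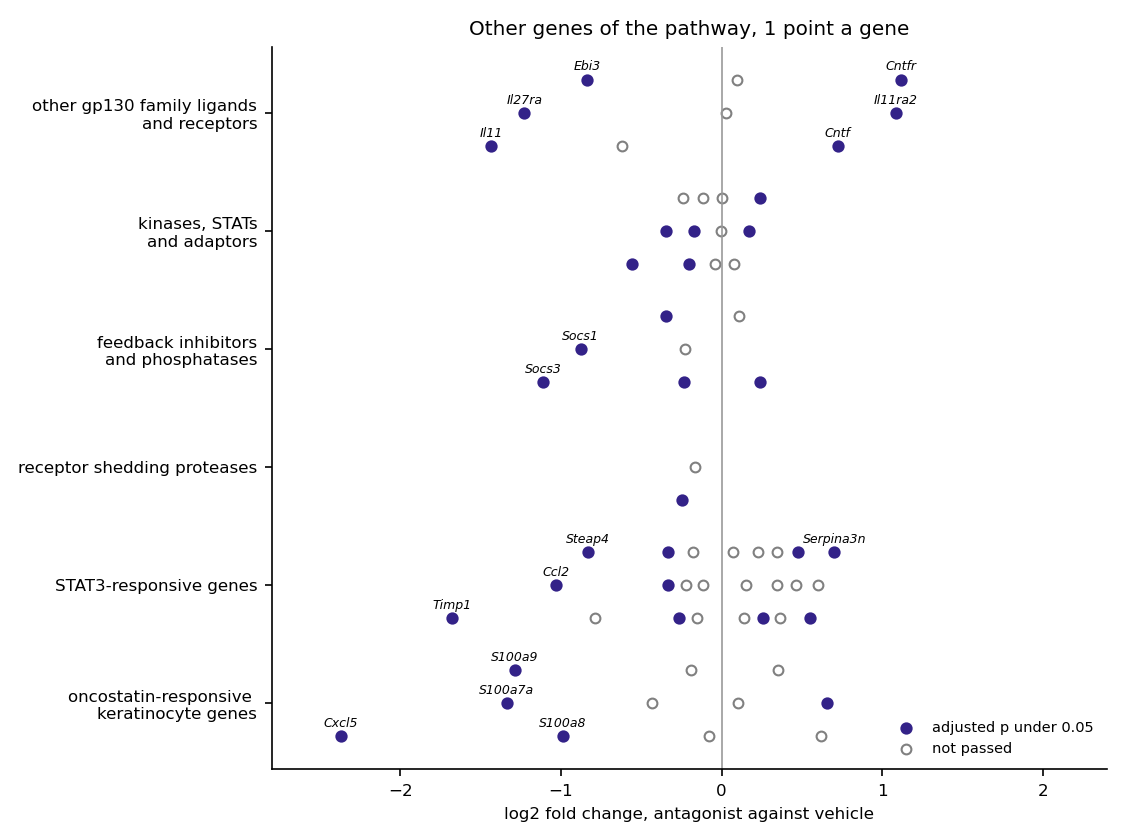
Log2 fold changes of antagonist against vehicle for the tested genes of 6 lists around the family, with 1 point for each gene, filled where the adjusted p was under 0.05. Points lie on both sides of 0 in most lists, with Cxcl5 at −2.37 and Timp1 at −1.68 the farthest to the left.

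The genes most like Il31ra over the 10 libraries, by the mean absolute difference of log2 CPM centred on each gene's mean, were Il27ra (0.132), Fkbp11 (0.146) and Pheta2 (0.165). Their log2 fold changes were −1.23, −1.23 and −1.03, a direction that the choice fixes, since the measure includes the difference between the groups. Those most like Osmr were the kinase gene Ptk6 (0.081), Lrrc61 (0.085) and the ferritin heavy chain gene Fth1 (0.087), whose log2 fold changes were 0.34, 0.16 and 0.11, likewise given as a description. Sensory neurons carry Il31ra and Osmr, but their cell bodies lie outside the ear. Of 12 sensory neuron markers only Nppb passed the filter, at 0.218 to 1.1 log2 CPM in vehicle and −2.34 to −1.02 in antagonist libraries. It passed only through the vehicle group, where it is high, so its log2 fold change of −2.45 is no evidence about these neurons. Trpa1 was at 0 counts in every library. The summed CPM of the list was 3.48 to 3.96 in vehicle and 1.59 to 8.24 in antagonist libraries.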

How the data were processed

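RNA libraries (10) of MC903-painted ear skin were sequenced from oligo(dT)-selected mRNA as DNA nanoballs, per the labels' protocols, which name no strand-marking step. Per the submitters' processing notes, HISAT was used; the sources used here do not give the counter or annotation. The authors deposited expected counts, TPM and FPKM (looked at for range only) per library, with group means. Their deposited DESeq2 columns hold log2 fold changes, p-values and q-values. The table held 19703 genes, and 0 per-library columns were left unmatched. Of 18930 genes matched by Ensembl ID, 18912 overlapped their GENCODE gene on GRCm38. The table gives Osmr and Il6ra on the other strand than GENCODE, so RefSeq's strand was used for promoters.

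Expected counts were rounded. Genes were kept by filterByExpr (10 counts in enough libraries, 15 in total), which left 15174, scaled by TMM (factors 0.972 to 1.04) and compared with edgeR 4.0.16 (R 4.3.3), quasi-likelihood F test on group alone, with p-values adjusted by Benjamini-Hochberg over the 15174 genes and called under 0.05. An SE is the log2 fold change over the square root of F. The code was tested on simulated data. Alternatives used DESeq2 1.42.0 and limma 3.58.1. The 9 genes and the lists were chosen from known roles with earlier results of these data known. All 9 are named, and of each pathway list the called genes with the 4 smallest p, beside others named as stated or chosen after their values were seen (Stat3, Jak1, Cntf, S100a8, Krt6b, Defb4, Ccl27a, Nppb and the Il11ra1 copies). RefSeq's table gave promoters for 8 of the 9 genes, without Osm.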

Additional observations from a re-analysis of the deposited data

Results flagged for a closer look

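Among the 9 genes and the other named genes, 88 groups of 5 libraries were looked at for a library far from the others, and 6 were marked, where chance marks about 1 in 20. Il6ra in vehicle replicate 10 had 28.9 CPM, against 42.3 to 44.95 CPM in the other vehicle libraries. Without it the log2 fold change of Il6ra was 0.28 (adjusted p = 0.109 by edgeR). S100a7a in antagonist replicate 8 had 7.78 CPM, against 1.90 to 3.42 CPM in the other antagonist libraries. Ccl27a in antagonist replicate 4 had 4.74 CPM, against 13.5 to 15.95 CPM in the others. Il11ra2 in vehicle replicate 9 had 9.65 CPM, against 3.27 to 5.10 CPM. Jak1 in antagonist replicate 8 had 228.8 CPM, against 210.3 to 212.5 CPM. Defb4 in vehicle replicate 10 had 49.4 CPM, against 23.5 to 30.0 CPM, and without it Defb4 passed (log2 fold change 0.86, adjusted p = 0.00702 by edgeR).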

How the results depend on the processing

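No paired analysis was possible because the groups share 1 replicate number. Of 20 other settings, the cartilage covariate left 0 genes called in all, 0 of the 9 genes and 0 pathway genes, and turned Osmr to −0.266, Ptk6 to −0.057, Lrrc61 to −0.178, Fth1 to −0.266 and Stat3 to −0.136. The cause was not tested, and the covariate differs strongly between groups. Stat3, at 0.0031, also turned to −0.008 with upper-quartile factors, −0.002 with limma-voom weights, −0.013 on TPM with pseudocounts of 1 or 0.1, and ranged from −0.034 to 0.048 with a library left out (negative without vehicle replicate 11 or antagonist replicates 8 or 10). Krt6b passed without vehicle replicate 9 (0.0199). The other 19 settings kept the calls of Il6, Osm, Il31ra, Lifr and Il11ra1, with log2 fold changes of −2.01 to −1.59, −1.35 to −1.05, −1.48 to −0.53, 0.51 to 0.82 and −0.72 to −0.54. Il6ra passed under DESeq2 (0.0441), without antagonist replicate 4 (0.0356) and without antagonist replicate 7 (0.0454). Leaving out each library in turn gave 3850 to 5641 genes called, 5 to 6 of the 9 and 23 to 32 pathway genes, against 5176, 5 and 33. Il31ra, with 12 to 62 counts per library, and Il31, with at most 2, are limited by depth.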

Other observations

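Of the 9 genes 6 lie in neighbouring pairs on GRCm38, and in each pair 1 gene was called and the other was not. Calls were made for 34.1% of all genes tested and for 5 of the 9 genes, so such splits are no result about neighbours. Osm and Lif are 16.5 kb apart on chromosome 11, with log2 fold changes of −1.22 (called) and −0.23. Il31ra and Il6st are 9.8 kb apart on chromosome 13, with −1.39 (called) and −0.18. Lifr and Osmr are 215.6 kb apart on chromosome 15, with 0.71 (called) and 0.21. Whether neighbours differ in their change was not tested.

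Vehicle replicates 11 and 12 held the lowest Il6, Osm and Il31ra of their group, at 6.97 and 6.89, 19.6 and 21.5, and 1.74 and 1.98 CPM. The same held for Osmr (72.15 and 81.1 CPM) and Il6st (264 and 281 CPM), which did not pass, and not for Lif, Lifr, Il6ra or Il11ra1. In vehicle replicates 11 and 12 the mean log2 CPM of neutrophil markers was also the lowest of the vehicle libraries, at 5.61 and 5.96. It was 6.14 to 6.48 in vehicle replicates 3, 9 and 10. Their T cell markers were the highest, at 2.94 and 3.25, against 2.52 to 2.82. The pattern was not particular to these lists. Macrophage markers (8.37 and 8.05, against 8.40 to 8.80) and mast cell and basophil markers (5.71 and 5.53, against 6.16 to 6.455) were also lowest there. Cartilage markers (5.79 and 5.98, against 5.05 to 5.495) and keratinocyte markers (10.439 and 10.73, against 10.199 to 10.419) were also highest there. In the remaining lists these replicates were not together at either end. With 5 libraries these are values to look at again and no relation was tested.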
